A study of Homo sapiens with 9 samples.

Results

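The genes described here encode proteins of the lipid droplet and carriers of fatty acids. They are PLIN2, PLIN3, HILPDA, FABP1, FABP2, FABP5, CIDEB, PNPLA2, LPIN1 and AGPAT2, chosen by symbol and not by any measured value. All 10 symbols are rows of the deposited table of 60591 symbols. Messenger RNA was counted in undifferentiated Caco-2 (uCaco-2), proliferating cells of an established human colon adenocarcinoma line. The cells received 300 μM CoCl2, 5 μM of the oxyquinoline derivative (OD) 4896-3212, or fresh medium as control, for 24 h. By the study's description the OD stock was 10 mM in DMSO, and the CoCl2 and control media therefore also received DMSO at 0.5%. Each condition had 3 biological replicates, each with its own library. CoCl2 and OD are both used to stabilise hypoxia-inducible factors without lowering oxygen. Their doses differ, so a difference between them compares these doses and not the compounds as such.

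A lipid droplet is a store of triglyceride and cholesteryl ester wrapped in a single layer of phospholipid and a coat of perilipin proteins. Triglyceride is built from glycerol phosphate by acyltransferases such as AGPAT2, by lipin phosphatases such as LPIN1 and by diacylglycerol acyltransferases. It is broken down first by the lipase ATGL, the product of PNPLA2, which HILPDA and G0S2 inhibit and ABHD5 activates. Enterocytes absorb dietary fat and carry its fatty acids through the cytosol on small binding proteins, FABP1 and FABP2 among them. HILPDA was found as a gene induced by hypoxia, and droplets are known to accumulate in many cell types when oxygen is low.

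Total counts per library ranged from 15998136 to 24209427. After the expression filter of edgeR, 15944 genes were tested, and 8 of the 10 genes were among them. FABP2 and CIDEB had too few counts. Levels are given as CPM, counts brought to 1 common library size with TMM factors, which correct for shifts in the make-up of a library. The call required an adjusted p under 0.05 and, on the log2 scale, a change of more than 1 in either direction. The TMM factors were 0.770 to 0.795 with CoCl2 against 1.11 to 1.15 in the other libraries. Scaling by library size alone moved the middle gene with CoCl2 from a log2 fold change of -0.049 to -0.55, so small changes with CoCl2 hang on the scaling. Of 10 epithelial and colon markers 9 were tested, with a summed level of 10180 to 13890 CPM over the 9 libraries, and CDX1 had no count. Of 10 markers of leukocytes, stroma and endothelium 5 were tested, and the 10 summed to 20.9 to 35.8 CPM. COL1A1 had 135 to 480 counts per library, COL3A1 74 to 150 and PDGFRB 8 to 127. PTPRC, not tested, reached at most 3 counts in a library. PLIN1, PLIN4 and CIDEC, described below as droplet genes, are among the 8 adipocyte markers. These 8 summed to 10.8 to 12.6 CPM in control cells, 13.6 to 16.1 with CoCl2 and 16.2 to 17.2 with OD. The cells were of an established line, and the presence of other cell types was not tested.

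The promoters of PLIN2, PNPLA2 and FABP1 are shown because theirs were the windows of these genes that held either motif searched. The windows cover the 250 bases before the start of the RefSeq transcript (build GRCh38.p14), read on the gene's own strand. RefSeq windows were at hand for 8 of the 10 genes, and those of HILPDA and FABP5 were not among them. Capitals mark ACGTG, a form of the core to which hypoxia-inducible factors bind, and AGGTCA, the half-site of many nuclear receptors. Both were searched on both strands. The other form of the core, GCGTG, was not searched and is not marked.
PLIN2 (chr9:19127493-19127742, minus strand): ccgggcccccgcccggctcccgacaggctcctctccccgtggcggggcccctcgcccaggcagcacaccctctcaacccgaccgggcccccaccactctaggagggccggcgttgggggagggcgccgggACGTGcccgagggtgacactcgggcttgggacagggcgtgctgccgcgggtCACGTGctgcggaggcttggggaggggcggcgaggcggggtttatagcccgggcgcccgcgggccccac
PNPLA2 (chr11:818664-818913, plus strand): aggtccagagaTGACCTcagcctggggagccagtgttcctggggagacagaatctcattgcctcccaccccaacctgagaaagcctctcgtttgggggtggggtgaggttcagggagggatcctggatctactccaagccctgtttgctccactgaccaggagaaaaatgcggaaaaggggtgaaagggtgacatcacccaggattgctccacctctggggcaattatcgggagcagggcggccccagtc
FABP1 (chr2:88128063-88128312, minus strand): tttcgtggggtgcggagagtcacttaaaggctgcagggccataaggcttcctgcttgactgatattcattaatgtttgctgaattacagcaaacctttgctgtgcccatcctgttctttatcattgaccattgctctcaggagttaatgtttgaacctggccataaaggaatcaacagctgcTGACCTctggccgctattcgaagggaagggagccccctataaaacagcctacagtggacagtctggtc
The PLIN2 window held 3 matches to ACGTG, at 120, 69 and 68 bases before the start, and the last 2 overlap as the palindrome CACGTG. At least 1 match was found in 18.5% of 34943 promoter windows of the same length, and 3 or more in 1.54%. None of the other windows of these genes held ACGTG, including 3 windows of LPIN1 and 2 of CIDEB. AGGTCA was found once in the FABP1 window, 68 bases before the start, and once in that of PNPLA2, 239 bases before it, against 12.1% of all windows with at least 1 match. These matches are descriptions of the letters, and binding was not measured.

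With CoCl2, 4 of the 8 tested genes were upregulated (PLIN2, PLIN3, PNPLA2 and LPIN1) and 2 were downregulated (FABP1 and FABP5). Over all tested genes, the share with such a call was 43.2%, 19.9% higher and 23.4% lower. With OD, 5 were upregulated (PLIN2, HILPDA, PNPLA2, LPIN1 and AGPAT2) and FABP5 was downregulated, while the share over all tested genes was 13.3%, 9.09% higher and 4.16% lower. Between the treatments, PLIN3 was higher with CoCl2, and HILPDA, FABP1 and AGPAT2 were higher with OD. Of all tested genes, 41.3% differed between the treatments by the same call, 17.5% higher with CoCl2 and 23.8% lower. By the adjusted p alone, 8 of the 8 tested genes differed from control with CoCl2, where 83.2% of all genes did, 8 with OD, where 65.6% did, and 7 between the treatments, where 83.5% did. The libraries of 7 genes did not overlap between CoCl2 and control (83.4% of all genes), those of 8 between OD and control (68.0%) and those of 7 between the treatments (83.8%). A passing p or a lack of overlap was thus common among all genes. In bulk RNA, fewer cells that express a gene and less of its mRNA in each cell cannot be told apart. Both treatments were compared with the same 3 control libraries.

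**Figure D1:**
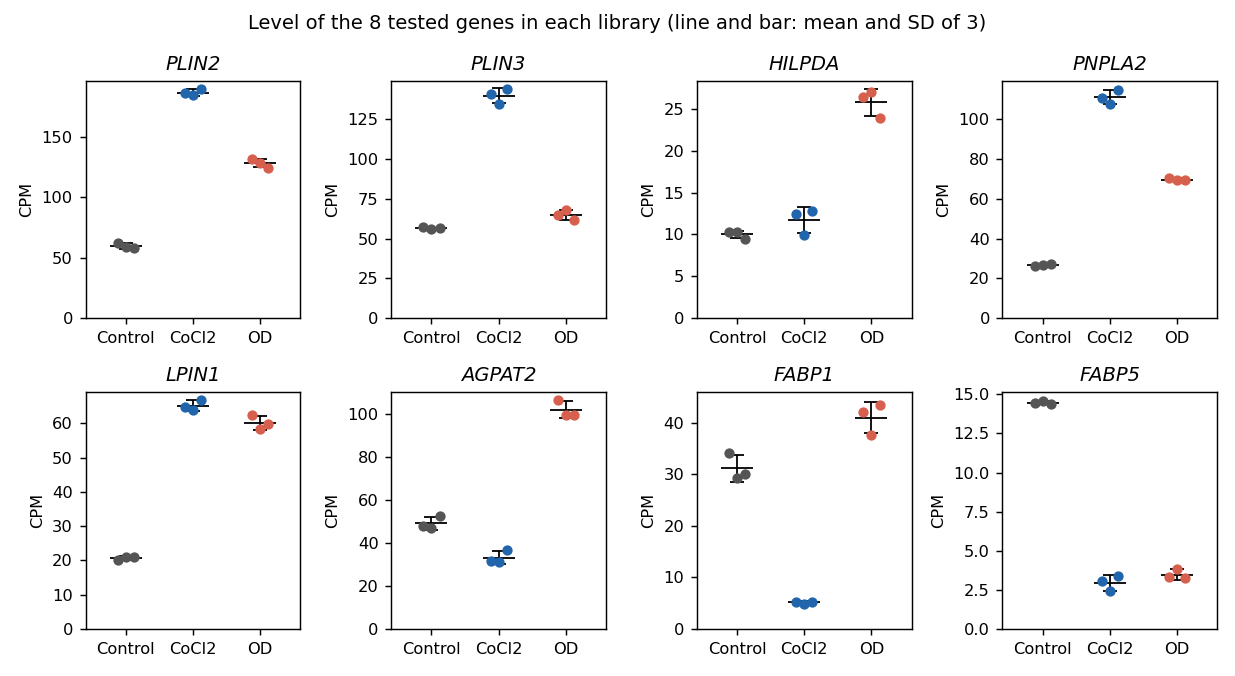
Level (CPM, linear axes from 0) of each tested gene in each of the 9 libraries, with the mean and SD of the 3 libraries of a condition. PLIN2, PNPLA2 and LPIN1 stand above control with both treatments, HILPDA and AGPAT2 stand highest with OD, FABP1 is lowest with CoCl2 and FABP5 is low with both.

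PLIN2 (ENSG00000147872, minus strand of chromosome 9, 19108375 to 19149290 on GRCh38) encodes perilipin 2, the coat protein found on droplets of most cells. Its level was 62.5, 59.1 and 58.2 CPM in the control libraries, 186, 185 and 190 CPM with CoCl2 and 132, 129 and 125 CPM with OD. The 3 conditions did not overlap, and CoCl2 gave the highest values. PLIN2 was upregulated 3.12-fold with CoCl2 (log2 fold change 1.64, SE 0.047, adjusted p = 1.08e-40 by the edgeR quasi-likelihood test) and 2.14-fold with OD (1.10, SE 0.047, adjusted p = 2.44e-30). The rise with OD lies close to the fold threshold, with a 95% interval of 1.01 to 1.19 on the log2 scale. A test against a log2 fold change of 1 (glmTreat) gave it an adjusted p of 0.0725. The treatments differed by 0.54 on the log2 scale (SE 0.043), under the fold threshold, and by -0.0037 with library size as the only scaling, so their order rests on the scaling.

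PLIN3 (ENSG00000105355, minus strand of chromosome 19, 4838341 to 4867694) encodes perilipin 3, which moves between cytosol and young droplets. The control libraries held 56.9, 56.0 and 56.4 CPM, those with CoCl2 141, 135 and 144 CPM and those with OD 64.7, 67.6 and 61.9 CPM. PLIN3 was upregulated 2.48-fold with CoCl2 (log2 fold change 1.31, SE 0.050, adjusted p = 5.59e-34). With OD its log2 fold change was 0.20 (95% interval 0.096 to 0.30), not called, although the OD libraries all lay above the control ones. The direct comparison put PLIN3 2.16-fold higher with CoCl2 than with OD (log2 difference 1.11, SE 0.048, adjusted p = 1.03e-30). With library size alone, the rise with CoCl2 was 0.80 and the difference from OD 0.56, both under the fold threshold. A gene on the other strand overlaps 18.3% of its exonic bases. Within a library, a ratio that needs no scaling, PLIN3 stood at 1.73 ± 0.054 times the level of PLIN2 per kb of exon in control cells. The ratio was 1.37 ± 0.031 with CoCl2 and 0.923 ± 0.034 with OD (SD, n = 3), below every control library with both, so the 2 coat genes changed unequally.

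HILPDA (ENSG00000135245, plus strand of chromosome 7, 128455849 to 128458418) encodes a small droplet protein that inhibits ATGL. It had 10.3, 10.3 and 9.48 CPM in the control libraries, 12.5, 9.98 and 12.7 CPM with CoCl2 and 26.4, 27.0 and 23.9 CPM with OD. The CoCl2 libraries overlapped the control ones, with the second CoCl2 library within the control range, and the OD libraries lay above both. HILPDA was upregulated 2.58-fold with OD (log2 fold change 1.37, SE 0.084, adjusted p = 1.33e-22). With CoCl2 the log2 fold change was 0.25 (95% interval 0.049 to 0.44, adjusted p = 0.0194), not called, and it turned to -0.26 with library size alone. The treatments differed by -1.12 on the log2 scale (SE 0.084, adjusted p = 3.61e-19), 2.17-fold lower with CoCl2, and the adjusted p against a log2 difference of 1 was 0.0763. Other genes on the same strand share 13.2% of the exonic bases of HILPDA.

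PNPLA2 (ENSG00000177666, plus strand of chromosome 11, 818914 to 825573) encodes the lipase ATGL. Its level was 26.3, 26.8 and 27.3 CPM in the control libraries, 111, 108 and 115 CPM with CoCl2 and 70.3, 69.3 and 69.7 CPM with OD. The 3 conditions were well apart, and the spread within each was at most 3.20% of the mean. PNPLA2 was upregulated 4.16-fold with CoCl2 (log2 fold change 2.06, SE 0.055, adjusted p = 3.27e-42), the largest rise among the tested genes of the set. With OD it was upregulated 2.61-fold (1.38, SE 0.056, adjusted p = 1.46e-31). The treatments differed by 0.67 on the log2 scale (SE 0.049), which is under the fold threshold. A gene on the other strand overlaps 10.5% of the exonic bases of PNPLA2.

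Set against PNPLA2 in the same library, its known regulators took different courses. These ratios were chosen after the values were seen, and no scaling between libraries enters them. HILPDA stood at 0.692 ± 0.042 times the level of PNPLA2 per kb of exon in control cells, 0.684 ± 0.045 with OD and 0.195 ± 0.021 with CoCl2 (SD, n = 3). The control libraries ran from 0.644 to 0.723 and the OD libraries from 0.635 to 0.722, which overlap, and the CoCl2 libraries reached at most 0.209. The ratio of G0S2, the other inhibitor, was 0.951 ± 0.146 in control cells, 0.571 ± 0.068 with OD and 0.0458 ± 0.011 with CoCl2. ABHD5, the activator, had ratios of 0.316 ± 0.0052, 0.146 ± 0.0071 and 0.192 ± 0.014 in the same order. By the fit across all genes, G0S2 was downregulated with CoCl2 (log2 fold change -2.26, SE 0.19, adjusted p = 5.2e-17) on 12 to 29 counts per CoCl2 library, and ABHD5 was upregulated with CoCl2 (1.33, SE 0.069, adjusted p = 9.58e-27). With OD, G0S2 had a log2 fold change of 0.64 and ABHD5 one of 0.27, both not called. The activity of the lipase was not measured.

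LPIN1 (ENSG00000134324, plus strand of chromosome 2, 11677595 to 11827409) encodes lipin 1, the phosphatase that makes diacylglycerol and also acts as a transcriptional coactivator. The control libraries held 20.2, 21.0 and 20.9 CPM, those with CoCl2 64.7, 63.8 and 66.9 CPM and those with OD 62.3, 58.3 and 59.8 CPM. Both treatments lay far above control and near each other. LPIN1 was upregulated 3.15-fold with CoCl2 (log2 fold change 1.66, SE 0.061, adjusted p = 1.17e-34) and 2.90-fold with OD (1.54, SE 0.060, adjusted p = 2.45e-32). The difference between the treatments was 0.12 on the log2 scale (95% interval 0.012 to 0.22). It was -0.014 with upper-quartile factors and -0.43 with library size alone, so no order of the treatments is read from it.

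AGPAT2 (ENSG00000169692, minus strand of chromosome 9, 136673143 to 136687457) encodes an acyltransferase that makes phosphatidic acid, the step before the lipins. It had 47.8, 46.8 and 52.7 CPM in the control libraries, 31.7, 31.3 and 36.7 CPM with CoCl2 and 107, 99.8 and 99.7 CPM with OD. The CoCl2 libraries lay below the control ones and the OD libraries above them. AGPAT2 was upregulated 2.08-fold with OD (log2 fold change 1.06, SE 0.054, adjusted p = 3.1e-26), with a 95% interval of 0.95 to 1.17 that includes the fold threshold. With CoCl2 its log2 fold change was -0.55 (SE 0.063, adjusted p = 4.03e-12), short of the fold threshold, and -1.06 and called with library size alone. The direct difference was -1.61 on the log2 scale (SE 0.059, adjusted p = 6.86e-35), 3.05-fold lower with CoCl2 than with OD. Per kb of exon, AGPAT2 stood at 15.4 ± 0.96 times the level of LPIN1 in control cells, 11.0 ± 0.17 with OD and 3.30 ± 0.22 with CoCl2 (SD, n = 3).

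**Figure D2:**
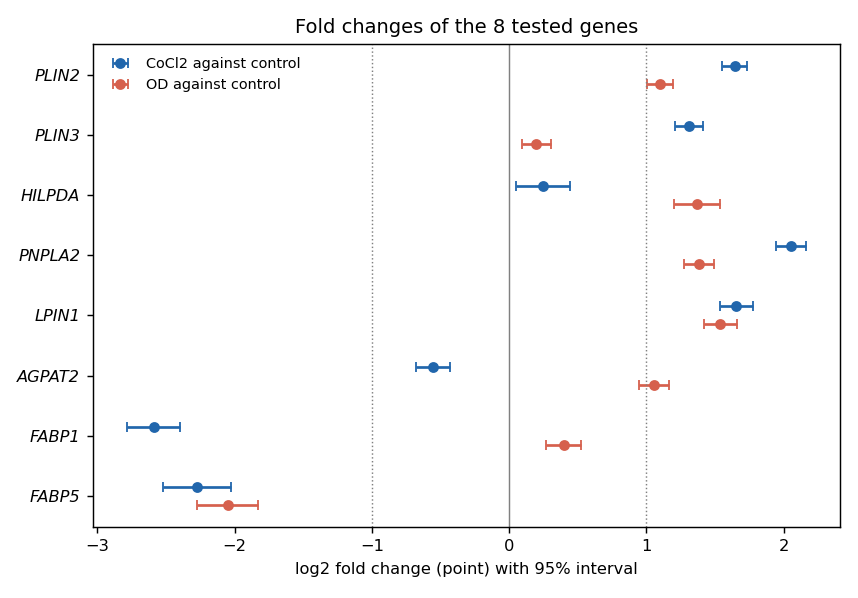
Log2 fold changes against control with 95% intervals for the 8 tested genes, with dotted lines at -1 and 1. FABP1 and AGPAT2 have opposite signs with CoCl2 (-2.59 and -0.55) and OD (0.40 and 1.06), and FABP5 lies near -2 with both.

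FABP1 (ENSG00000163586, minus strand of chromosome 2, 88122982 to 88128062) encodes the liver-type fatty acid binding protein, abundant in liver and small intestine. Its level was 34.1, 29.3 and 30.0 CPM in the control libraries, 5.29, 4.80 and 5.30 CPM with CoCl2 and 42.1, 37.6 and 43.3 CPM with OD. The highest CoCl2 library lay far below the lowest control library, and the OD libraries lay above all the control ones. FABP1 was downregulated 6.02-fold with CoCl2 (log2 fold change -2.59, SE 0.097, adjusted p = 2.35e-34), the largest fall among the tested genes of the set. With OD its log2 fold change was 0.40 (SE 0.065, adjusted p = 2.36e-07), not called for its size. The treatments differed by -2.99 on the log2 scale (SE 0.092, adjusted p = 1.05e-38), 7.93-fold lower with CoCl2. All 3 values kept their sign in every alternative run. The 16 enterocyte markers, to which FABP1 does not belong here, summed to 1909 to 1976 CPM in control cells, 1550 to 1625 with CoCl2 and 1977 to 2035 with OD, and their part in the result was not tested.

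FABP5 (ENSG00000164687, plus strand of chromosome 8, 81280536 to 81284777) encodes the epidermal-type fatty acid binding protein, found in many cell types. It had 14.5, 14.6 and 14.4 CPM in the control libraries, 3.05, 2.40 and 3.36 CPM with CoCl2 and 3.32, 3.86 and 3.25 CPM with OD. Both treatments lay far below control and overlapped each other. FABP5 was downregulated 4.83-fold with CoCl2 (log2 fold change -2.27, SE 0.12, adjusted p = 9.54e-26) and 4.14-fold with OD (-2.05, SE 0.11, adjusted p = 5.24e-25). The direct difference between the treatments was -0.22 (95% interval -0.54 to 0.098, adjusted p = 0.191), which does not show that they act alike. These levels rest on 31 to 87 counts per treated library and 256 to 297 per control library. FABP5 has many near-identical pseudogene copies, and 13 of their symbols together took 1 to 4 counts per library. Reads that fit several copies may not have been counted, so the level of FABP5 is uncertain.

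FABP2 (ENSG00000145384, minus strand of chromosome 4, 119317250 to 119322138) encodes the intestinal-type binding protein of mature enterocytes. It had 0, 1 and 0 counts in the control libraries, 0, 0 and 2 with CoCl2 and 3, 4 and 0 with OD. At this depth, where 3 counts amount to 0.133 to 0.232 CPM, a change was not detectable. CIDEB (ENSG00000136305, minus strand of chromosome 14, 24305187 to 24311430) encodes a droplet protein of liver and intestine, and it had no count in any of the 9 libraries. Exons of NOP9 and LTB4R2 on the other strand cover 100% of the exonic bases of CIDEB. Of 17 protein-coding genes covered to at least 99% by exons of the other strand, all 17 had no count, against 14.9% of 12809 genes covered to at most 1%. The counts therefore say nothing about the level of CIDEB mRNA.

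**Figure D3:**
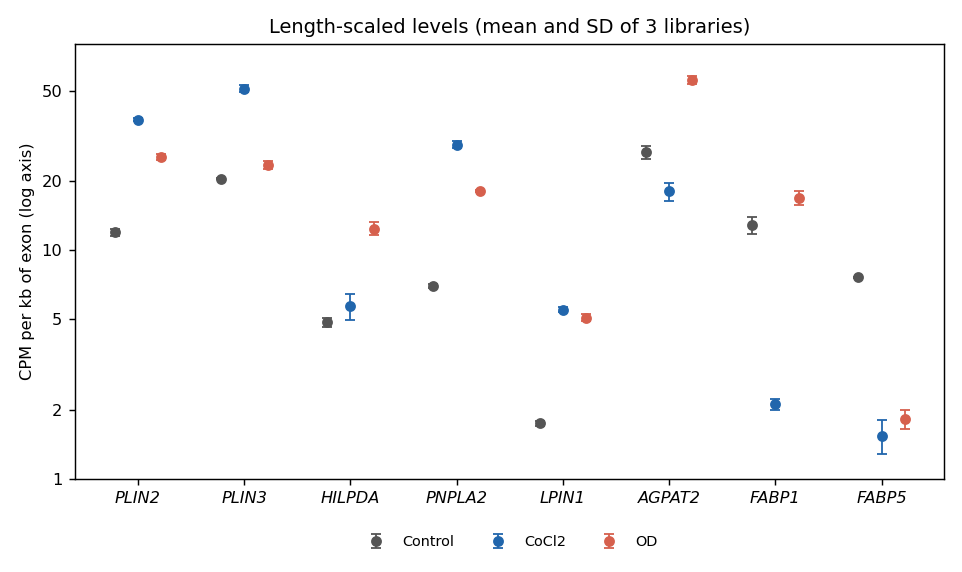
Level per kb of exon (CPM per kb, log axis) of the 8 tested genes, with the mean and SD of 3 libraries in each condition. The length is that of all annotated exons of a gene, so the order of genes depends on the annotation. AGPAT2 is highest in control cells (26.8) and with OD (55.7), PLIN3 is highest with CoCl2 (51.0), and FABP5 is lowest with both treatments.

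Divided by the length of all its annotated exons, AGPAT2 had the highest level in control cells (26.8 ± 1.74 CPM per kb, SD, n = 3). These lengths ran from 1.832 kb for AGPAT2 to 11.861 kb for LPIN1. They can exceed the length of the transcripts that the cells made, which was not measured. The order of genes thus depends on the annotation. PLIN3 followed at 20.6 ± 0.16, then FABP1 at 12.9 ± 1.07 and PLIN2 at 12.0 ± 0.45, whose libraries overlapped. FABP5, PNPLA2, HILPDA and LPIN1 came next at 7.60, 6.99, 4.83 and 1.75 CPM per kb, each apart from its neighbour. With CoCl2 the order was PLIN3, PLIN2, PNPLA2 and AGPAT2, from 51.0 to 18.1 CPM per kb, then HILPDA and LPIN1, which overlapped, and FABP1 and FABP5 at 2.12 and 1.54. With OD it was AGPAT2 at 55.7, PLIN2 at 25.6, PLIN3 at 23.6, PNPLA2 at 18.21 and FABP1 at 16.96, with HILPDA, LPIN1 and FABP5 at 12.5, 5.07 and 1.83 CPM per kb. No neighbours overlapped with OD. By this measure FABP1 was not apart from PLIN2 in control cells and next to last with CoCl2.

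The other genes of droplet and fatty acid handling were taken from lists by role, 67 symbols of the table, of which 50 were tested. Of these, CoCl2 upregulated 13 and downregulated 16, against 19.9% higher and 23.4% lower over all tested genes. The median log2 fold change of the 50 was -0.28, against -0.049 over all tested genes. With OD, 8 were called higher and 2 lower, against 9.09% and 4.16% of all tested genes, around a median of 0.17 against -0.010 for all. Between the treatments, 7 were higher with CoCl2 and 16 lower, against 17.5% and 23.8% of all tested genes, around a median of -0.51 against -0.054. The lists by role are small, and their counts are read against the same shares.

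**Figure D4:**
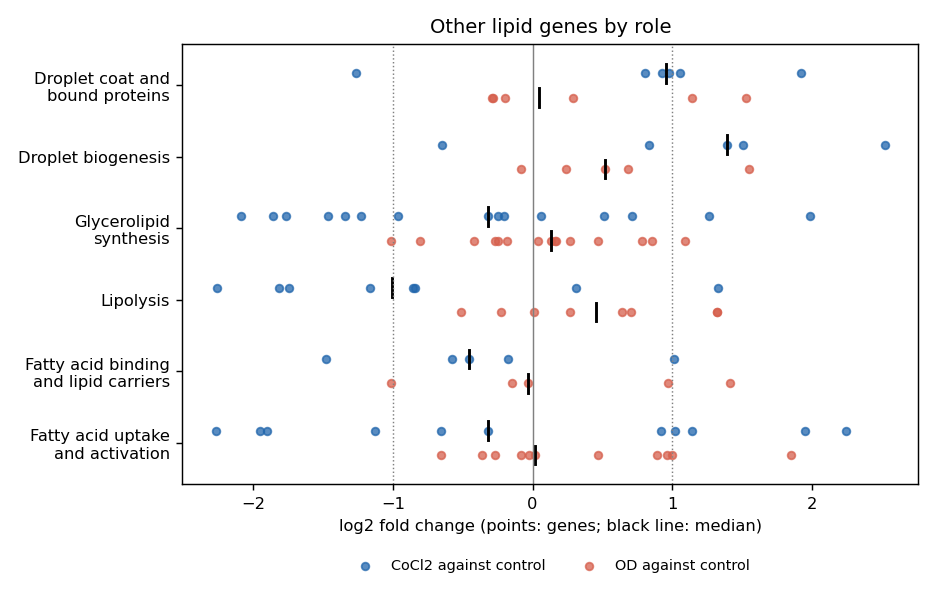
Log2 fold changes against control of the other lipid genes, 1 point per gene, grouped by role, with black lines at the medians and dotted lines at -1 and 1. The medians with CoCl2 are above 0 for the droplet coat (0.95) and biogenesis (1.39) lists and below 0 for the other 4 lists.

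Among droplet-bound proteins, 6 of 12 symbols were tested, and 2 were upregulated and 1 downregulated with CoCl2. For all tested genes the shares were 19.9% and 23.4%. PLIN4, another perilipin, rose with CoCl2 (log2 fold change 1.92, SE 0.49) and with OD (1.53, SE 0.49), on at most 14 counts per library. The 95% intervals of PLIN4, 0.95 to 2.89 and 0.55 to 2.51, include the fold threshold. CIDEC, the relative of CIDEB that fuses droplets, rose with OD (1.14, SE 0.11, 95% interval 0.92 to 1.35). With CoCl2 CIDEC had 0.98, just under the fold threshold. HSD17B11 rose with CoCl2 (1.06, SE 0.069, 95% interval 0.92 to 1.20) and METTL7B fell (-1.27, SE 0.096). RAB18 and AUP1, a small GTPase and a droplet-bound protein, were higher with CoCl2 than with OD (1.13, SE 0.048, and 1.09, SE 0.042). PLIN1, the perilipin of adipocytes, had 0 to 1 counts in the control libraries, 6 to 12 with CoCl2 and 1 to 6 with OD, and was not tested.

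Of 5 tested genes of droplet biogenesis, 3 were upregulated with CoCl2 and none was downregulated, where 19.9% and 23.4% of all tested genes were. BSCL2, which encodes seipin, had the largest rise with CoCl2 (log2 fold change 2.53, SE 0.19), and genes of the same strand overlap 21.8% of its exonic bases. The rise of BSCL2 rests on 14 to 28 counts per control library and 103 to 108 with CoCl2. TMEM159, which encodes a partner of seipin, rose with CoCl2 (1.51, SE 0.093) and with OD (1.55, SE 0.089). TMEM41B, a lipid scramblase, rose with CoCl2 (1.39, SE 0.054) and had 0.69 with OD.

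Of 15 tested genes of glycerolipid synthesis, 2 were upregulated and 6 downregulated with CoCl2, and 1 and 1 with OD. The shares of all tested genes were 19.9% and 23.4% with CoCl2, and 9.09% and 4.16% with OD. GPAT3, an acyltransferase of the first step, rose with CoCl2 (1.99, SE 0.067), while DGAT2 and MOGAT3, which act near the last step, fell (-2.09, SE 0.065, and -1.86, SE 0.18). AGPAT1, which catalyses the same reaction as AGPAT2, fell with CoCl2 (-1.77, SE 0.095) and had -0.42 with OD, and genes of the other strand overlap 30.3% of its exonic bases. LPIN2, the relative of LPIN1, rose with OD (1.09, SE 0.047, 95% interval 0.99 to 1.18) and had 0.061 with CoCl2. PLPP2, a lipid phosphatase, rose with CoCl2 (1.26, SE 0.075) and fell with OD (-1.01, SE 0.092), the latter with a 95% interval of -1.195 to -0.83 that includes the fold threshold.

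Of 8 genes of lipolysis, 1 was upregulated and 4 were downregulated with CoCl2, and 2 were upregulated with OD. Among all tested genes, 19.9% were higher and 23.4% lower with CoCl2, and 9.09% were higher with OD. Beside G0S2 and ABHD5, PNPLA3, the closest relative of PNPLA2, fell with CoCl2 (-1.82, SE 0.15). MGLL, the monoglyceride lipase of the last step, rose with OD (1.33, SE 0.067) and fell with CoCl2 (-1.16, SE 0.092). Its 95% interval with CoCl2, -1.35 to -0.98, includes the fold threshold. MGLL was lower with CoCl2 than with OD by a log2 difference of -2.49 (SE 0.081). LIPA, the lysosomal acid lipase, rose with OD (1.32, SE 0.052), and DDHD2 fell with CoCl2 (-1.74, SE 0.066).

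Among other binding proteins and carriers, 5 of 8 were tested, with 1 upregulated and 1 downregulated by each treatment. The shares of all tested genes were 19.9% and 23.4% with CoCl2, and 9.09% and 4.16% with OD. CRABP2, a retinoic acid binding protein, rose with CoCl2 (1.01, SE 0.10, 95% interval 0.81 to 1.22) and with OD (1.41, SE 0.094). RBP2, the retinol binding protein of enterocytes, fell with both (-1.48, SE 0.10, and -1.01, SE 0.089), with an interval of -1.19 to -0.83 for OD. The intervals of CRABP2 with CoCl2 and of RBP2 with OD include the fold threshold. FABP3, the heart-type binding protein, was lower with CoCl2 than with OD (-1.42, SE 0.10). FABP4, FABP6 and FABP7 had at most 5 counts in any library. Of 11 tested genes of fatty acid uptake and activation, 4 were upregulated and 4 downregulated with CoCl2. For all tested genes these shares were 19.9% and 23.4%. ACSL3, the acyl-CoA synthetase found on young droplets, rose with CoCl2 (1.95, SE 0.042) and had 0.96 with OD. SLC27A5, SLC27A2 and SLC27A3, of the family of fatty acid transporters, fell with CoCl2 (-2.27, SE 0.29, then -1.95, SE 0.086, and -1.902, SE 0.11). SLC27A5 had 41 to 51 counts per control library and 3 to 11 with CoCl2. Genes of the other strand overlap 16.5% of the exonic bases of SLC27A5 and 19.9% of those of SLC27A2. SLC27A1 rose with CoCl2 (1.14, SE 0.17, 95% interval 0.80 to 1.49) and with OD (1.85, SE 0.15).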

How the data were processed

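mRNA of uCaco-2 was sequenced as single-end reads from poly(A)-selected stranded libraries. The authors checked reads with FastQC 0.11.9, trimmed them with cutadapt 2.10, mapped them with STAR 2.7.5b on GRCh38.p13 and counted them on GENCODE genes. The counting tool and its handling of strand are not given in the sources used here. The deposited values are raw counts per gene symbol, and 0 sample columns were left unused.

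TMM factors, the expression filter, robust quasi-likelihood fits over 9 libraries with 1 mean per condition, and Benjamini-Hochberg adjustment over 15944 genes came from edgeR 4.0.16 (R 4.3.3). The SE is the log2 fold change divided by the root of its F statistic. Replicates of each condition differed beyond sampling noise (chi-square per degree of freedom 1.74 to 3.05). Exon lengths and overlaps came from GENCODE release 44, while the study used release 34. Floors of 3 counts cover counting error only.

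The genes, lists and tests were chosen with earlier results of these data known. Named in the text are all 10 genes, and from each list up to 3 called genes per direction and comparison, and the 3 genes most like each of PLIN2, HILPDA, FABP1 and FABP5. Some genes that this rule picks are not reported here. The ratios within a library, the untested list genes, HNF4A, PPARG and values under the threshold were added with the results in view. The code was tested on simulated data. Alternatives were fits on 6 libraries, DESeq2 1.42.0, other scalings and filters, the replicate number as a block, each library left out, other thresholds and thinned counts.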

Additional observations from a re-analysis of the deposited data

How the results depend on the processing

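Of 504 log2 fold changes of the 8 tested genes under the alternatives, 486 kept their direction and call, 6 lost and 8 gained the call, and 4 changed sign. With glmTreat and with the adjusted p alone the fold changes were those of the main fit, so only the call could change. The adjusted p alone drops the fold threshold and can only add calls. All gains came from it, except that of AGPAT2 with CoCl2 under library size alone. The changes of sign were those of HILPDA with CoCl2 (-0.26) and of PLIN2 (-0.0037) and LPIN1 (-0.43) between the treatments with library size alone, and of LPIN1 between the treatments with upper-quartile factors (-0.014). Library size alone also moved the share of called genes that were higher from 46.0% to 23.9% with CoCl2 and from 42.4% to 18.3% between the treatments. The cause was not tested. The number of these genes called higher with OD was 3 in place of 5 with glmTreat. Between the treatments, the number higher with CoCl2 was 0 in place of 1 with upper-quartile factors or library size alone, and 4 with the adjusted p alone. Of all tested genes, 19.9% were higher and 23.4% lower with CoCl2, 9.09% and 4.16% with OD, and 17.5% and 23.8% between the treatments. Over all 81 tested list genes, transcription factors and enterocyte markers included, 17 were higher and 26 lower with CoCl2, and 6 were higher with library size alone. With OD 14 were higher and 3 lower. With glmTreat these were 8 and 1, and the number lower was 1 on 6 libraries, with upper-quartile factors or library size alone, and 0 with at least 10 counts in every library. Between the treatments 9 were higher and 29 lower, with 5 higher under upper-quartile factors and 3 higher and 46 lower under library size alone. With the adjusted p alone, the list genes higher and lower were 32 and 42 with CoCl2, 45 and 21 with OD, and 21 and 50 between the treatments, and all genes called were 13260, 10466 and 13311 in place of 6891, 2113 and 6580. All genes called with OD were 1134 with at least 10 counts in every library and 965 with glmTreat. Leaving out each library in turn changed no call of the 8 genes, and the list genes lower with OD ranged from 1 to 3, with 1 without control replicate 3 or OD replicate 2. Deviations from the condition means, across genes, had Pearson correlations from -0.018 to 0.067 between libraries with the same replicate number. Between libraries with other numbers they ran from -0.069 to 0.062. These ranges overlap, and with 3 libraries per condition they cannot show whether the numbers pair the libraries. With the replicate number as a block, the numbers of these genes higher and lower were 4 and 2 with CoCl2, 5 and 1 with OD and 1 and 3 between the treatments, and all genes called were 6901, 2115 and 6568, with no call of the 8 genes changed. FABP2 and CIDEB could not be tested at this depth and with this counting.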

Other observations

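Among transcription factors known for lipid or enterocyte genes, 16 of 18 were tested, with 3 upregulated and 4 downregulated with CoCl2 and 2 upregulated with OD. The shares over all tested genes were 19.9% higher and 23.4% lower with CoCl2, and 9.09% and 4.16% with OD. EPAS1, which encodes HIF-2 alpha and is known to regulate lipid genes, rose with CoCl2 (log2 fold change 1.301, SE 0.047) and with OD (1.11, SE 0.046). SREBF1, the regulator of fatty acid synthesis, rose with CoCl2 (1.34, SE 0.050). MLXIPL, which encodes the carbohydrate sensor ChREBP, fell with CoCl2 (-3.35, SE 0.302, 3 to 7 counts per library). With OD MLXIPL rose (1.17, SE 0.14, 95% interval 0.89 to 1.46), and the treatments differed by -4.52 (SE 0.25). GATA4 fell with CoCl2, with 18 to 23 counts per control library and 0 to 3 with CoCl2. NR1H3, the oxysterol receptor LXR alpha, was lower with CoCl2 than with OD (-1.67, SE 0.087). NR1H4, the bile acid receptor, had 0 counts in the control libraries, 91 to 119 with CoCl2 and 0 to 1 with OD. HNF4A and PPARG were not called, with 0.41 and -0.21 with CoCl2 and 0.46 and 0.97 with OD.

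Enterocyte markers moved in both directions beside FABP1. Of 15 tested, 1 was upregulated and 6 were downregulated with CoCl2, and 4 were upregulated and 1 was downregulated with OD. Over all tested genes, 19.9% were higher and 23.4% lower with CoCl2, and 9.09% and 4.16% with OD. SLC2A2, the glucose transporter GLUT2, fell with both treatments (-3.68, SE 0.23, and -1.57, SE 0.15). VIL1, the brush-border protein villin, and APOB, the core protein of chylomicrons, fell with CoCl2 (-2.45, SE 0.044, and -2.10, SE 0.044), although a gene on the other strand overlaps 44.2% of the exonic bases of VIL1. MEP1A, a brush-border protease, rose with CoCl2 (1.197, SE 0.097) and with OD (1.235, SE 0.093). MTTP, which loads lipid onto APOB, and SLC5A1, the glucose transporter SGLT1, rose with OD (1.699, SE 0.32, and 1.28, SE 0.42) and had 0.86 and 0.75 with CoCl2, not called. Both rest on few counts, for MTTP 8 to 10 per control library and 19 to 45 with OD. SLC5A1 had 4 to 7 and 8 to 19, and its 95% interval with OD, 0.43 to 2.12, includes the fold threshold. ANPEP, a brush-border peptidase, fell with CoCl2 (-1.36, SE 0.28, 95% interval -1.93 to -0.80) and was lower than with OD (-2.11, SE 0.25). SLC15A1, the peptide transporter, fell with CoCl2 and rose with OD (-1.14, SE 0.12, and 1.76, SE 0.0797). The 95% intervals of ANPEP and SLC15A1 (-1.38 to -0.90) with CoCl2 include the fold threshold.

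By the root mean square difference of log2 CPM from the control mean over the 9 libraries, F2RL1 and RELT were among the genes most like PLIN2 out of 13428 (0.055 and 0.076). Those most like HILPDA were LINC01138, TFAP2C and ACSS2 (0.091, 0.093 and 0.099), the last an acetyl-CoA synthetase. Those most like FABP1 were ADCK2, C16orf58 and SGSM2 (0.098, 0.12 and 0.14), and those most like FABP5 were FUOM, LNCAROD and SOX2 (0.17, 0.27 and 0.29). CIDEB has no pattern to compare.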
